A study of Homo sapiens with 10 samples.

Results

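Both siRNAs against NRAS were set against each other in cells labelled RD, a human rhabdomyosarcoma line. The members are all 23228 gene rows of the deposited count table in the 2 libraries of NRAS siRNA 1 and the 2 of NRAS siRNA 2. These 4 libraries stand among 10, and 14761 of the 23228 genes passed a filter on low counts and were tested. The other 8467 rows were too low to test, and 3858 rows had no count in any of the 4 libraries. Each siRNA was given at 10 nM with Lipofectamine RNAiMAX and RNA was taken after 48 h, so dose and time match. The same holds for the nonspecific siRNA (NS siRNA, 2 libraries), which is the common control here. The remaining 4 libraries, 2 of DMSO and 2 of the ERK inhibitor SCH772984 at 300 nM for 24 h, serve for the spread and for the place of each gene. All cells were grown in RPMI with 10% FBS, and all groups come from 1 cell line. Nothing in the labels states that the 2 libraries of a group are separate cultures. The p-values therefore speak only of the spread among these libraries, and that spread could be technical. The siRNA sequences are not given in the sources used.

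NRAS encodes a small membrane-bound GTPase of the RAS family that passes growth factor signals to the RAF, MEK and ERK kinases. A small interfering RNA loads 1 strand into an Argonaute protein and directs cleavage of a matching transcript. The same loaded strand can also lower other transcripts through short pairing of its seed, the stretch near its 5′ end, mostly with 3′ UTRs, in the way a microRNA does. Comparing a pair of siRNAs with 1 target asks which transcripts depend on which siRNA was used.

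The 4 NRAS siRNA libraries held 27677755 to 30768970 counts assigned to genes, and the 10 libraries 23224063 to 30768970. Levels are given as CPM, the count of a gene scaled to the library total with TMM factors, and are compared within a gene only. Both libraries of a group correlated at Pearson's r of 0.990 to 0.993 across genes on log2 CPM, where genes are not independent replicates. Defining myogenic regulators were at or near 0 in these cells. MYOD1 had 0 to 5 counts per library, MYOG 0 to 3 and MYF5 0 in all 10 libraries, while PAX3 had 258 to 393 and DES 520 to 928. RD cells are known to express MYOD1 and MYOG, so these counts go against the label.

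NRAS itself was lowered to a similar level by both siRNAs. NRAS stood at 52.4 and 52.2 CPM with siRNA 1, 51.0 and 48.0 with siRNA 2 and 219.7 and 272 with the NS siRNA. Both groups lay far below the control, at 21.3% of the NS level for siRNA 1 and 20.1% for siRNA 2. The direct difference between the siRNAs was 0.08 on the log2 scale (siRNA 1 minus siRNA 2, 95% interval -0.19 to 0.34), with an edgeR adjusted p of 0.963. HRAS, a related RAS gene, differed by 0.16 (95% interval -0.16 to 0.49).

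Beyond the target, edgeR called 34 genes higher with siRNA 1 (0.23% of genes tested) and 29 lower with siRNA 1 (0.196%), 63 in all (0.427%), at an adjusted p under 0.05. Of these, 7 and 5 differed at least 2-fold. An unadjusted p under 0.05 was reached by 881 genes. The log2 sizes of the 63 ran from 0.43 to 2.48 with a median of 0.76. All 63 kept the groups apart, both libraries of one siRNA above both of the other, but so did 36.8% of all genes tested. The count rests on 2 libraries a group: it was 18 without siRNA 1 replicate 1, 6 without siRNA 1 replicate 2, 6 without siRNA 2 replicate 1 and 8 without siRNA 2 replicate 2, where the lone library is assumed to vary like the other groups. It was 28 in a fit of only the 4 NRAS siRNA libraries, 19 in one of only the 6 siRNA libraries, 40 with either ERK inhibitor library left out, and 134 with DESeq2.

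**Figure D1:**
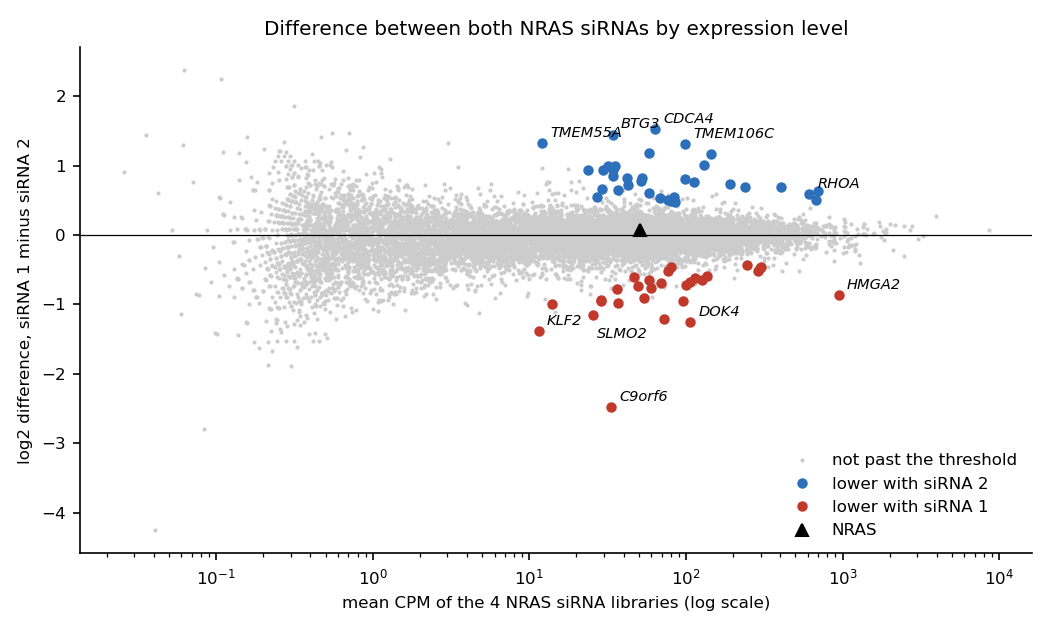
Log2 difference of siRNA 1 minus siRNA 2 for the 14761 genes tested, against the mean CPM of the 4 NRAS siRNA libraries on a log axis. Coloured points are the 34 genes lower with siRNA 2 and the 29 lower with siRNA 1, and the triangle is NRAS at 0.08.

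For most genes the data bound the difference. The 95% interval lay inside 2-fold for 12606 genes (85.4%) and inside 1.5-fold for 9435 (63.9%). That share depended on level: it was 14.1% for inside 2-fold in genes under 1 CPM, 81.3% from 1 to 10 CPM, 98.2% from 10 to 100 CPM and 99.3% above. Those classes held 0, 0, 43 and 20 called genes. A further 113 genes had an estimate of at least 2-fold without passing the threshold. Under 1 CPM, differences of 2-fold were mostly not detectable at this depth.

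Most called genes departed from the NS siRNA with the siRNA in which they were low. Of the 34 genes lower with siRNA 2, 33 fell against the NS siRNA with siRNA 2 and 0 with siRNA 1. Their median log2 difference from the NS siRNA was -0.83 with siRNA 2 and -0.06 with siRNA 1. In 32 of the 34, both siRNA 2 libraries lay below the other 8 libraries of the series, a place held by 4.75% of all genes tested. Of the 29 genes lower with siRNA 1, 18 fell against the NS siRNA with siRNA 1, while with siRNA 2 there were 3 that rose and 1 that fell. Their medians were -0.55 with siRNA 1 and 0.17 with siRNA 2, and in 25 of the 29 both siRNA 1 libraries lay below the other 8, against 1.71% of genes tested. In 21 of the 29 both siRNA 2 libraries also lay above those of siRNA 1 and the NS siRNA, against 10.2% of genes tested. In 11 of the 29 they lay above all the other 8, against 4.48%. Both siRNA 1 libraries lay above those of siRNA 2 and the NS siRNA in 9 of the 34, against 4.68%. The NS mean lay nearer to siRNA 1 in 34 of the 34 and nearer to siRNA 2 in 26 of the 29, against 62.5% and 37.5% of genes tested. These genes were called on differences between the same siRNA libraries, so such places are partly set by the choice of genes. Both comparisons share the NS libraries. Over all genes they gave 305 calls with siRNA 1 (2.07%) and 949 with siRNA 2 (6.43%). These calls move with the libraries: they were 81 and 130 without NS replicate 1, 133 and 465 without NS replicate 2, and 66 and 217 with only the 6 siRNA libraries. For siRNA 1 they were 28 and 165 without its replicate 1 or 2 and 186 with either ERK inhibitor library left out, and for siRNA 2 they were 53 without its replicate 1.

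**Figure D2:**
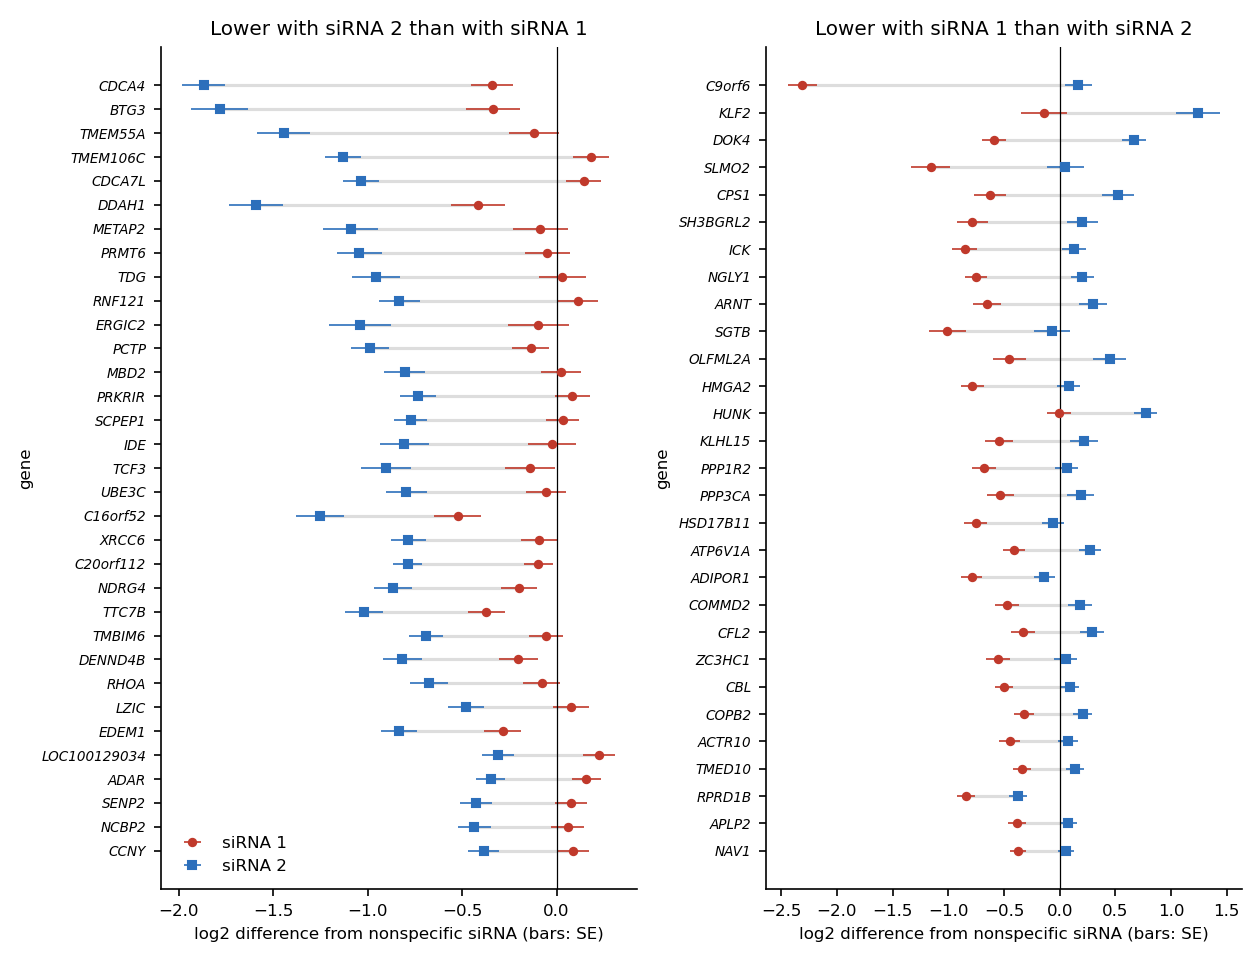
Log2 difference from the NS siRNA, with its SE, for siRNA 1 (circles) and siRNA 2 (squares) in 62 of the 63 genes that differed between them. On the left 33 of the 34 genes are displaced with siRNA 2, and on the right the 29 genes mostly with siRNA 1. Over all 34 and all 29 the medians are -0.06 and -0.55 with siRNA 1, and -0.83 and 0.17 with siRNA 2.

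Short sequence words were searched in the 3′ UTRs of these genes, the part of a transcript where seed pairing is known to act. GENCODE 29 transcripts (GRCh38) gave a 3′ UTR for 13441 tested genes, among them all 29 genes lower with siRNA 1 and 33 of the 34 lower with siRNA 2. All 16384 words of 7 letters were scanned on the transcript strand, and the words shown are those with the greatest excess in each set, so their shares there describe how they were chosen. In genes lower with siRNA 1 the greatest excess was that of GGACTAT (23 of 29, 79.3%, against 6.06% of tested genes and 0 of the 33) and the overlapping GACTATA (19 of 29, 65.5%, against 7.06%). In genes lower with siRNA 2 it was that of CCTAAGA (22 of 33, 66.7%, against 9.90% of tested genes and 5 of the 29) and the overlapping ACCTAAG (20 of 33, 60.6%, against 7.63%). Joined, they make the 8-letter words GGACTATA and ACCTAAGA. The highest word unrelated to these reached 75.9% against 32.9% of tested genes in the first set (TTTTTGA), and 81.8% against 44.7% in the second (TTGTTTT).

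Each joined word occurs exactly once in the 3′ UTR of NRAS, which spans 3625 of the 4449 bases of the transcript. The words start at 3′ UTR bases 3156 and 3334, and the rest of the transcript was not searched. That UTR holds 5.10% of all 8-letter words. The 8-letter word was held by 14 of the 29 (48.3%) and 17 of the 33 (51.5%), against 1.93% and 2.62% of tested genes. SLMO2, CDCA7L and DDAH1 lacked it and held a 7-letter word. The NRAS window with each word is shown first, followed by some genes named below that hold the 8-letter word of their set. Positions are given in GRCh38 with the strand, all within 1 exon of the 3′ UTR. Sequences run 5′ to 3′ and capitals mark the joined word.
NRAS, siRNA 1 word, chr1:114704923-114704951, minus strand: ttctataaacaagGGACTATAattcttgt
C9orf6, chr9:108940854-108940882, plus strand: atttcaaataaaaGGACTATAaaacgtgt
DOK4, chr16:57473152-57473180, minus strand: tggagctaccgtgGGACTATAtactgtta
CPS1, chr2:210678744-210678772, plus strand: agttttgttttctGGACTATAtcagcaga
ARNT, chr1:150810306-150810334, minus strand: ttaaatgtgatcaGGACTATAatattgta
ICK, chr6:53002053-53002081, minus strand: tctcttgcctaaaGGACTATAtacatcta
NGLY1, chr3:25719286-25719314, minus strand: tatctttatacgtGGACTATAataaaata
NRAS, siRNA 2 word, chr1:114704745-114704773, minus strand: agcctgagtactgACCTAAGAtggaattg
CDCA4, chr14:105010476-105010504, minus strand: cacatcttcctagACCTAAGAgtaaatta
TMEM106C, chr12:47968641-47968669, plus strand: ggaccatccaaatACCTAAGAgaaaacag
METAP2, chr12:95514178-95514206, plus strand: ttttgttttgaatACCTAAGAgatacttt
PRMT6, chr1:107058518-107058546, plus strand: aattgtacagcatACCTAAGAaactcaga
TDG, chr12:103987449-103987477, plus strand: ttatcccttttatACCTAAGAagggcatg
RHOA, chr3:49360095-49360123, minus strand: ttatctataatttACCTAAGAttacaaat
ICK holds 2 copies of its word, of which 1 is shown. Outside the capitals the windows differ from gene to gene. A match is a description of these letters, not a measured site.

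Genes that did not pass the threshold were outside the called sets. They come from the same libraries, and they are part of the background against which the words were chosen. Of those with an unadjusted p under 0.05 and a lower level with siRNA 1, 157 of 410 (38.3%) held 1 of the 7-letter siRNA 1 words, against 24 of 355 (6.76%) of those lower with siRNA 2 and 10.6% of all genes not called. The siRNA 2 words gave the mirror image, in 144 of 355 (40.6%) against 53 of 410 (12.9%), with 14.0% of all genes not called. The medians of uncalled genes with and without a 7-letter word were -0.10 and 0.006 for siRNA 1, and nearly the same, 0.003 and -0.003, for siRNA 2. Over the 245 uncalled genes with the 8-letter siRNA 1 word, the median difference was -0.07 and 69.0% lay below 0, against 50.2% of genes without it. Over the 333 with the 8-letter siRNA 2 word, the median was 0.07 and 35.1% lay below 0, against 50.9%. Carriers had longer 3′ UTRs (medians of 3693 and 3557 bases, against 1342 and 1334). Length classes were also set apart, with called genes left out. Within 3′ UTRs of 1000 to 2500 bases, the medians with and without the 8-letter word were -0.06 and -0.01 for siRNA 1, and 0.10 and -0.01 for siRNA 2. In longer 3′ UTRs they were -0.08 and -0.04, and 0.04 and -0.05.

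**Figure D3:**
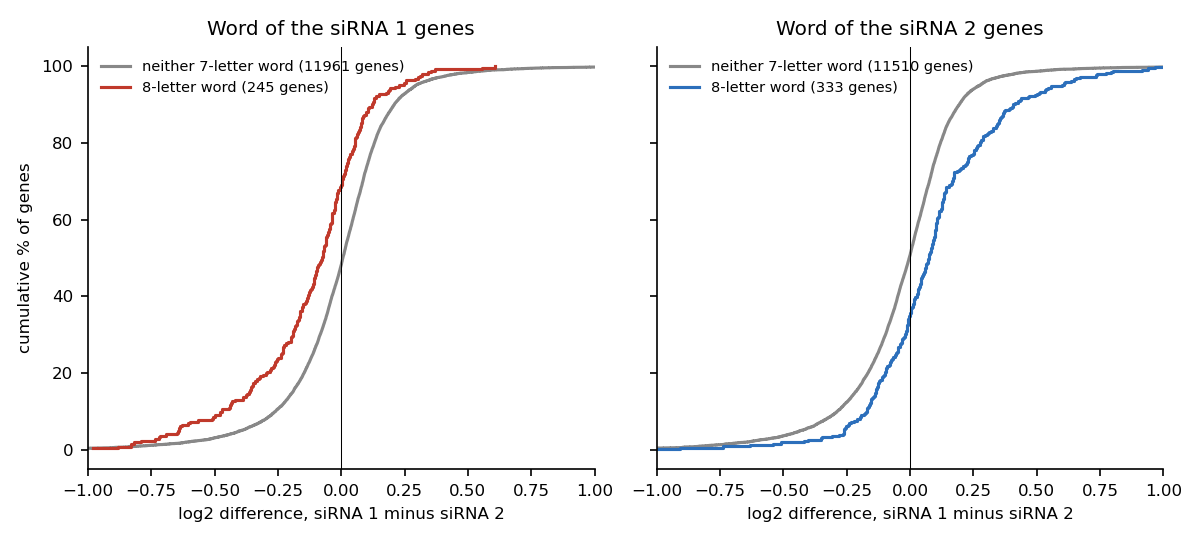
Cumulative percent of genes not past the threshold against their log2 difference, siRNA 1 minus siRNA 2, shown from -1 to 1. Carriers of the 8-letter siRNA 1 word (245 genes, left) lie to the left of genes without either 7-letter word, and carriers of the siRNA 2 word (333 genes, right) lie to the right.

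Of the called genes, 25 of 29 (86.2%) held at least 1 of the siRNA 1 words, against 10.7% of tested genes and 1 of the 33. At least 1 of the siRNA 2 words was held by 25 of 33 (75.8%), against 14.1% of tested genes and 6 of the 29. The words were chosen from these same sets. ADIPOR1, HMGA2, KLF2 and OLFML2A, lower with siRNA 1, held neither siRNA 1 word in the 3′ UTR used. The same was true of the siRNA 2 words in BTG3, CCNY, ERGIC2, PRKRIR, SENP2, TCF3, UBE3C and XRCC6. LOC100129034 had no matching reference entry.

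Among genes lower with siRNA 1, C9orf6 (FAM206A in the reference) differed most. Its level was 9.46 and 10.8 CPM with siRNA 1, 57.7 and 55.5 with siRNA 2 and 44.8 and 56.0 with the NS siRNA. The siRNA 1 group stood at 20.1% of the NS level, while 1 of the siRNA 2 libraries lay within the range of the controls (log2 difference -2.48, SE 0.13, edgeR adjusted p = 4.85e-05). That level is close to the 21.3% of NRAS itself.

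SLMO2, which encodes a PRELI domain protein of mitochondria, stood at 41.4 and 45.7 CPM with siRNA 1, 99.9 and 102 with siRNA 2 and 83.9 and 111 with the NS siRNA (log2 difference -1.21, SE 0.17, edgeR adjusted p = 0.0175). Of the 6 siRNA libraries, only those of siRNA 1 were low. CPS1, the first enzyme of the urea cycle, stood at 17.3 and 14.4 CPM with siRNA 1, 39.0 and 31.5 with siRNA 2 and 26.7 and 22.4 with the NS siRNA (log2 difference -1.15, SE 0.15, edgeR adjusted p = 0.00983). In CPS1 the NS libraries lay between both siRNAs, and neither siRNA passed the threshold against them (adjusted p of 0.0597 and 0.0562).

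ICK, a kinase of cilia, stood at 23.4 and 26.0 CPM with siRNA 1, 50.2 and 47.5 with siRNA 2 and 43.1 and 46.4 with the NS siRNA (log2 difference -0.98, SE 0.11, edgeR adjusted p = 0.00562). NGLY1, which strips N-glycans from misfolded proteins, stood at 19.7 and 19.0 CPM with siRNA 1, 35.6 and 39.6 with siRNA 2 and 32.9 and 32.5 with the NS siRNA (log2 difference -0.96, SE 0.10, edgeR adjusted p = 0.00473). In both genes, of the 6 siRNA libraries, only those of siRNA 1 lay below the NS siRNA. ARNT, the partner of the hypoxia-inducible factors, stood at 71.7 and 59.4 CPM with siRNA 1, 136 and 118 with siRNA 2 and 111 and 95.3 with the NS siRNA (log2 difference -0.96, SE 0.13, edgeR adjusted p = 0.013). Its 2 siRNA 1 libraries lay below the other 4. SH3BGRL2, SGTB, a cochaperone, and OLFML2A, an olfactomedin-like secreted protein, differed by -0.99, -0.94 and -0.90.

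HMGA2, an architectural chromatin protein of embryonic and tumour cells, stood at 678 and 660.5 CPM with siRNA 1, 1251 and 1191 with siRNA 2 and 1153 and 1155 with the NS siRNA (log2 difference -0.87, SE 0.10, edgeR adjusted p = 0.00654). The siRNA 2 libraries were level with the NS siRNA and those of siRNA 1 were low. The ERK inhibitor libraries, taken at 24 h, stood at 650.1 and 575 CPM and their DMSO controls at 1049 and 868 CPM.

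DOK4 and KLF2 behaved otherwise. DOK4, a docking protein for receptor tyrosine kinases, stood at 67.7 and 58.3 CPM with siRNA 1, 148 and 154 with siRNA 2 and 102 and 87.5 with the NS siRNA (log2 difference -1.26, SE 0.11, edgeR adjusted p = 0.0011). It fell with siRNA 1 (66.4% of the NS mean, adjusted p = 0.0249 by edgeR) and rose with siRNA 2 (159%, adjusted p = 0.0103 by edgeR), the only tested gene called in opposite directions. KLF2, a zinc finger transcription factor, stood at 5.95 and 6.74 CPM with siRNA 1, 14.2 and 19.0 with siRNA 2 and 6.37 and 7.62 with the NS siRNA (log2 difference -1.38, SE 0.20, edgeR adjusted p = 0.0181). There the siRNA 1 libraries were level with the NS siRNA and those of siRNA 2 were high, the group at 237% of the NS level. The ERK inhibitor libraries stood at 19.8 and 21.8 CPM and their DMSO controls at 4.0 and 5.65 CPM. HUNK, a kinase, likewise rose against the NS siRNA with siRNA 2 (adjusted p = 0.00505 by edgeR) and not with siRNA 1 (0.986). It stood at 28.5 and 24.9 CPM with siRNA 1, 46.6 and 45.0 with siRNA 2 and 27.5 and 26.1 with the NS siRNA. Its 3′ UTR holds the 8-letter siRNA 1 word, though its siRNA 1 group stood at 99.6% of the NS level. KLF2 was not alone in its place with the ERK inhibitor. HUNK stood at 44.0 and 42.4 CPM there against 25.7 and 24.9 with DMSO, and DOK4 at 130 and 135 against 92.7 and 87.5. CPS1 (37.3 and 38.8 against 24.7 and 25.1) and OLFML2A (115 and 122 against 51.7 and 40.8) were higher too. ICK, like HMGA2, was lower (35.5 and 37.6 against 51.0 and 44.1). These differences were not tested here.

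**Figure D4:**
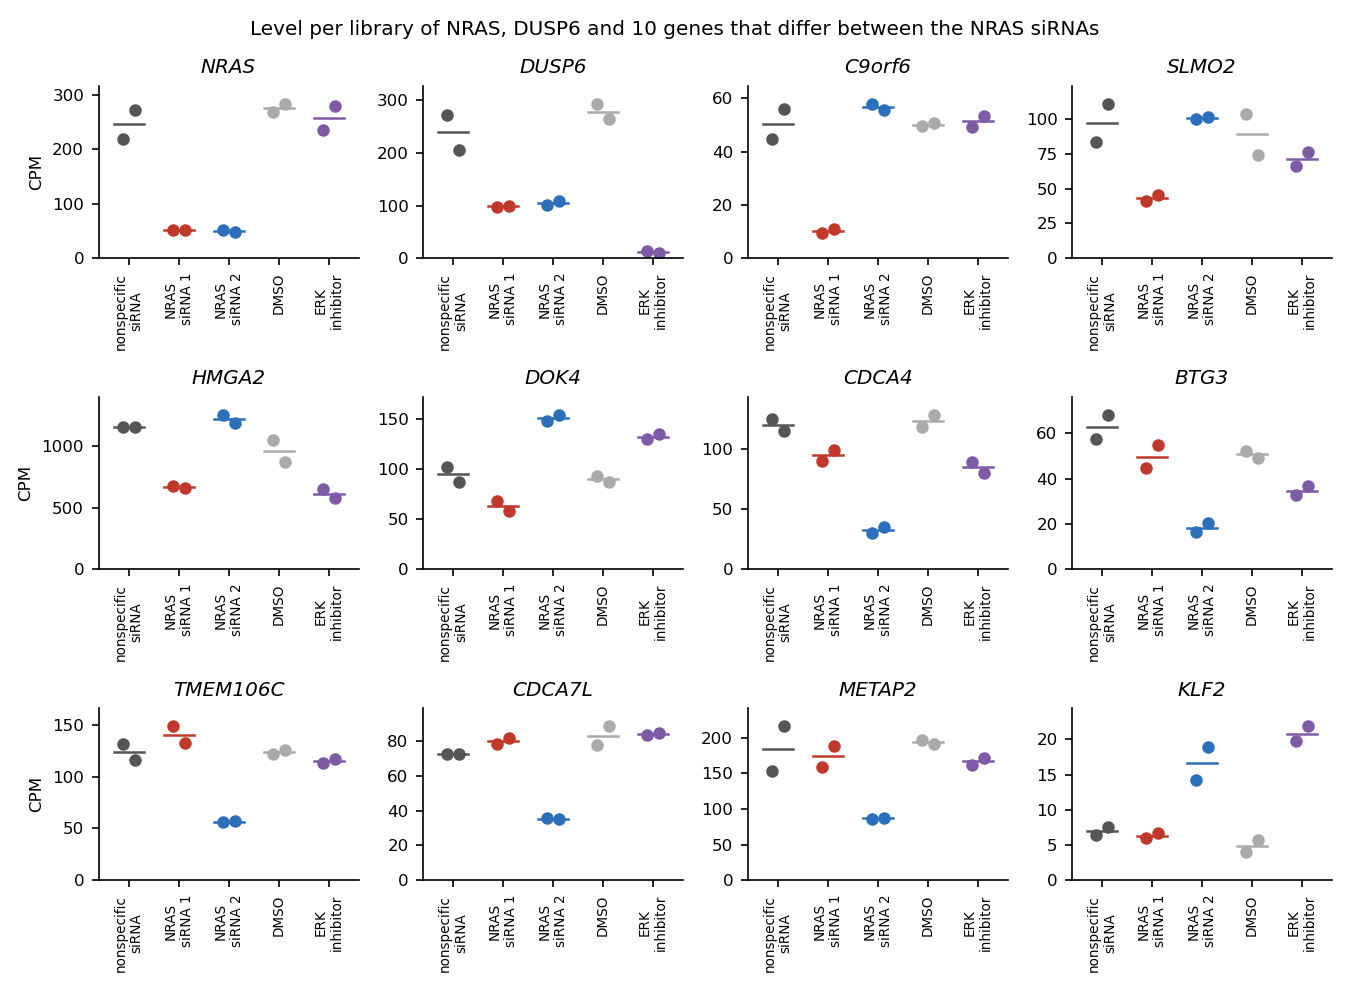
CPM per library (points) and group mean (lines) on linear axes from 0 for NRAS, DUSP6 and 10 genes that differed between the siRNAs. NRAS and DUSP6 are alike with both siRNAs, C9orf6, SLMO2 and HMGA2 are low with siRNA 1, and CDCA4, BTG3, TMEM106C, CDCA7L and METAP2 are low with siRNA 2.

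The other genes of this direction ran from KLHL15 at -0.76 to NAV1 at -0.43. Among them were PPP3CA, a catalytic subunit of calcineurin, at -0.72, CBL, a ubiquitin ligase for receptor tyrosine kinases, at -0.59, and CFL2, the muscle cofilin that severs actin filaments, at -0.61. ADIPOR1, an adiponectin receptor, and ATP6V1A, a subunit of the vacuolar proton pump, differed by -0.65 and -0.68. COPB2 and TMED10, of the coats and cargo receptors between ER and Golgi, differed by -0.52 and -0.48. RPRD1B was the gene of the 29 that fell with siRNA 2 as well, to 77.0% of the NS mean against 55.9% with siRNA 1.

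Among genes lower with siRNA 2, CDCA4 differed most. CDCA4, a SERTA domain protein tied to E2F-dependent transcription, stood at 90.2 and 99.2 CPM with siRNA 1, 30.5 and 35.4 with siRNA 2 and 125 and 115 with the NS siRNA (log2 difference 1.52, SE 0.11, edgeR adjusted p = 4.44e-04). Both siRNA 2 libraries were low, with the group at 27.4% of the NS level, and the siRNA 1 group at 78.9% did not pass the threshold against the NS siRNA (adjusted p = 0.139 by edgeR). BTG3, an antiproliferative protein of the BTG and TOB family, stood at 44.8 and 54.6 CPM with siRNA 1, 16.2 and 20.3 with siRNA 2 and 57.7 and 67.9 with the NS siRNA (log2 difference 1.45, SE 0.15, edgeR adjusted p = 0.0045).

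TMEM55A, a phosphoinositide phosphatase of endosomes and lysosomes, stood at 16.5 and 17.9 CPM with siRNA 1, 6.28 and 7.44 with siRNA 2 and 18.1 and 19.2 with the NS siRNA (log2 difference 1.33, SE 0.14, edgeR adjusted p = 0.00466). TMEM106C, a transmembrane protein, stood at 149 and 132 CPM with siRNA 1, 56.0 and 57.4 with siRNA 2 and 132 and 116 with the NS siRNA (log2 difference 1.31, SE 0.10, edgeR adjusted p = 4.44e-04). CDCA7L, a MYC-interacting protein, stood at 78.5 and 81.6 CPM with siRNA 1, 35.8 and 34.9 with siRNA 2 and 72.6 and 72.4 with the NS siRNA (log2 difference 1.18, SE 0.09, edgeR adjusted p = 6.03e-04). In these 3 genes the siRNA 1 and NS libraries lay close together, and of the 6 siRNA libraries only those of siRNA 2 were low.

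DDAH1, which breaks down asymmetric dimethylarginine, stood at 177 and 222 CPM with siRNA 1, 81.1 and 95.9 with siRNA 2 and 256 and 277 with the NS siRNA (log2 difference 1.18, SE 0.14, edgeR adjusted p = 0.00788). METAP2, which removes the initiator methionine, stood at 159.7 and 189 CPM with siRNA 1, 86.3 and 87.5 with siRNA 2 and 153 and 216 with the NS siRNA (log2 difference 1.00, SE 0.15, edgeR adjusted p = 0.0181). PRMT6, an arginine methyltransferase of histones, stood at 47.5 and 46.7 CPM with siRNA 1, 22.5 and 24.8 with siRNA 2 and 46.6 and 50.8 with the NS siRNA (log2 difference 0.99, SE 0.12, edgeR adjusted p = 0.0072). The siRNA 2 level was 33.2%, 47.0% and 48.5% of the NS mean in these genes.

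TDG, which removes thymine from mismatches with guanine, stood at 38.6 and 46.1 CPM with siRNA 1, 20.6 and 22.1 with siRNA 2 and 38.3 and 44.6 with the NS siRNA (log2 difference 0.99, SE 0.13, edgeR adjusted p = 0.0111). Again siRNA 1 was level with the NS siRNA, at 102% of its mean. RNF121 and ERGIC2, both of the early secretory pathway, differed by 0.94 and 0.94.

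The other genes of this direction ran from PCTP at 0.85 to CCNY at 0.47. They included abundant transcripts. RHOA, the GTPase of stress fibres, stood at 734 and 740.0 CPM with siRNA 1, 472 and 504 with siRNA 2 and 815 and 743 with the NS siRNA (log2 difference 0.60, SE 0.10, edgeR adjusted p = 0.041). XRCC6, a Ku subunit of DNA end joining, differed by 0.69, and TMBIM6, an ER membrane protein that limits cell death, by 0.63. TCF3, the E protein that partners myogenic factors, differed by 0.76, and MBD2, which binds methylated DNA, by 0.83. LOC100129034 was the gene of the 34 that did not pass the threshold against the NS siRNA with siRNA 2 (adjusted p = 0.0585 by edgeR). SLMO2, TDG and XRCC6 have processed copies in the genome, so their counts are less certain, and overlapping genes cannot be told apart in these counts.

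Genes of ERK pathway output, which follow the activity of the kinase, held 1 call between the siRNAs. Of 33 tested, 0 were higher and 1 (HMGA2) was lower with siRNA 1, and the median difference was -0.11 beside -0.003 over all genes tested. The 95% interval lay inside 2-fold for 25 of the 33. Against the NS siRNA 13 fell with siRNA 1 and 14 with siRNA 2, with medians of -1.02 and -1.03, where 1.17% and 3.84% of all genes tested fell.

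DUSP6, a phosphatase that switches ERK off, stood at 96.7 and 99.8 CPM with siRNA 1, 101 and 108 with siRNA 2 and 272 and 206 with the NS siRNA. All 4 siRNA libraries lay together, below both controls, and the difference was -0.09 (95% interval -0.45 to 0.27). SPRY4, an inhibitor of receptor signalling, stood at 114 and 126 CPM with siRNA 1, 107 and 126 with siRNA 2 and 292 and 249 with the NS siRNA, a difference of 0.05 (-0.29 to 0.39). ETV4, an ETS factor induced by ERK, stood at 129 and 156 CPM with siRNA 1, 117 and 165 with siRNA 2 and 284 and 246 with the NS siRNA, a difference of 0.02 (-0.41 to 0.45). ETV5, another member of the list, stood at 85.6% of the NS level with siRNA 1 and 83.6% with siRNA 2. Neither passed the threshold against the NS siRNA (adjusted p of 0.477 and 0.293 by edgeR), and the siRNAs differed by 0.03 (-0.30 to 0.37). EGR1, an immediate-early factor, stood at 17.9 and 16.7 CPM with siRNA 1, 20.4 and 19.1 with siRNA 2 and 81.2 and 44.2 with the NS siRNA, a difference of -0.20 (-0.80 to 0.41).

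FOSL1, an AP-1 subunit, shows where replicates set the limit. It stood at 19.6 and 66.1 CPM with siRNA 1, 17.0 and 58.3 with siRNA 2 and 68.3 and 119 with the NS siRNA, with replicate 2 above replicate 1 in each of the 3 groups. Its interval, -1.16 to 1.54 in this fit without pairing, does not exclude a 2-fold difference in either direction. CCND1, the D-type cyclin, was split the same way at 393 and 626 CPM with siRNA 1, 389 and 642 with siRNA 2 and 818 and 906 with the NS siRNA, a difference of -0.02 (-0.54 to 0.51). MYC differed by 0.08 (-0.43 to 0.58) and CDKN1A, the CDK inhibitor p21, by 0.14 (-0.67 to 0.95).

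VCAM1, MET and BCL2L11 rose against the NS siRNA with at least 1 siRNA and did not pass the threshold between the siRNAs. VCAM1, an adhesion molecule, stood at 12.6 and 18.5 CPM with siRNA 1, 16.8 and 33.2 with siRNA 2 and 3.52 and 5.09 with the NS siRNA, a difference of -0.69 (-1.43 to 0.06). MET, the HGF receptor, stood at 22.9 and 26.8 CPM with siRNA 1, 26.3 and 26.1 with siRNA 2 and 8.57 and 11.6 with the NS siRNA, a difference of -0.08 (-0.47 to 0.32). BCL2L11, which encodes the proapoptotic protein BIM, differed by -0.11 (-0.42 to 0.20), and passed the threshold against the NS siRNA with siRNA 2 (edgeR adjusted p = 0.0213) and not with siRNA 1 (0.0605). For VCAM1 the interval reaches past 2-fold, whereas for MET and BCL2L11 it does not.

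**Figure D5:**
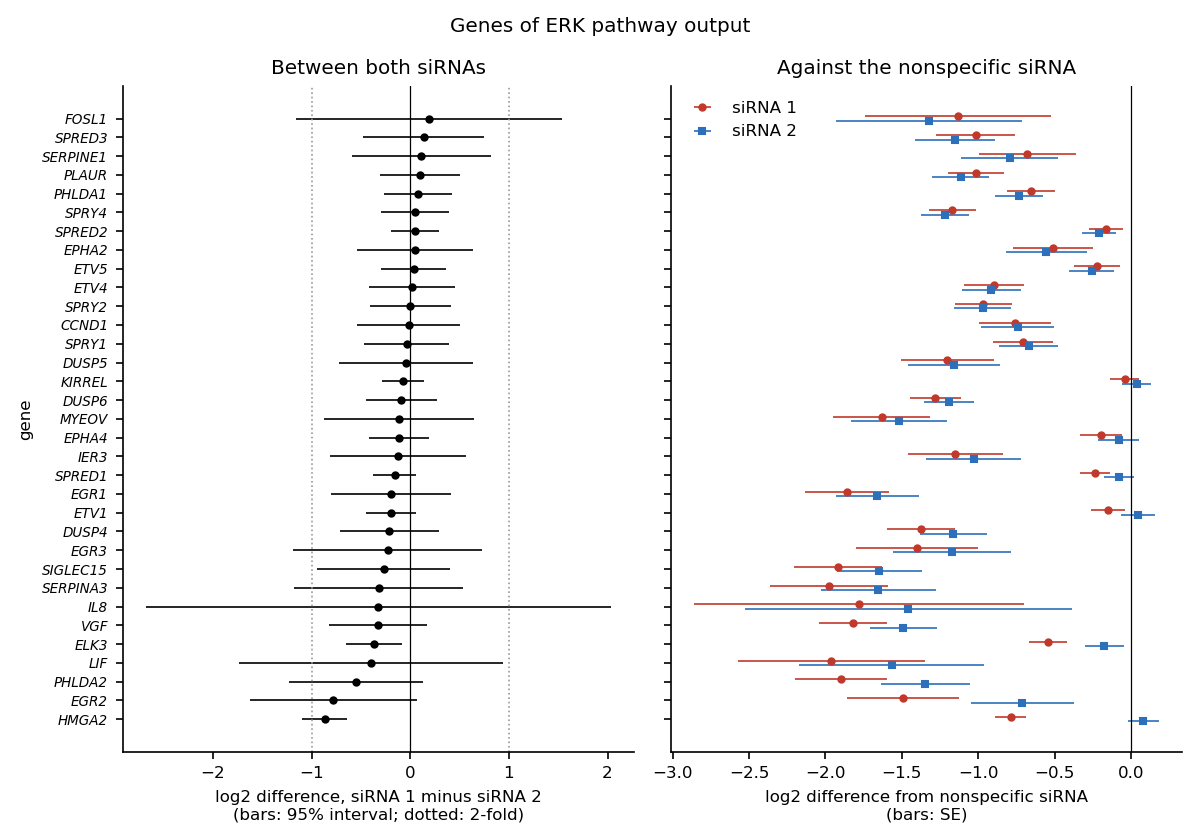
Left, log2 difference of siRNA 1 minus siRNA 2 with its 95% interval for the 33 genes of ERK pathway output, where dotted lines mark 2-fold. Right, the log2 difference of each siRNA from the NS siRNA with its SE, with medians of -1.02 and -1.03. HMGA2, at the bottom, is the gene whose difference between the siRNAs passed the threshold.

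DNA replication genes showed no call between the siRNAs, 0 of 40 tested, beside 0.427% of all genes tested. An unadjusted p under 0.05 was reached by 10 of the 40 (881 of 14761 over all genes). All 40 intervals lay inside 2-fold, and the median difference was 0.25. Against the NS siRNA 0 of the 40 fell with siRNA 1 (median -0.19) and 18 with siRNA 2 (median -0.45), beside 1.17% and 3.84% of all genes tested. A call with 1 siRNA and not the other is no test of their difference, and the direct test called none. The origin subunit ORC6 had the highest estimate, at 0.46 (95% interval 0.12 to 0.80, adjusted p = 0.611 by edgeR). Mitosis genes gave 0 of 36 with a median of 0.11, and 0 and 4 of them fell against the NS siRNA. MKI67, the proliferation marker, differed by 0.12 (-0.08 to 0.33).

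Lists of cellular responses to foreign RNA were examined next. Of 31 interferon response genes tested, 0 were called, and the median was -0.15. Over all genes tested 0.427% were called, so 0 calls in a list of this size say little about it. The highest absolute estimate was OAS2 at -1.11 (95% interval -2.57 to 0.34). ISG15 and IFIT1, induced by interferon, differed by -0.11 and -0.15. Against the NS siRNA, ISG15 fell to 51.2% with siRNA 1 and 55.1% with siRNA 2 (adjusted p of 0.0356 and 0.0313 by edgeR). IFIT1 passed the threshold with neither (0.504 and 0.672). Over the list, 1 gene fell with siRNA 1 and 2 with siRNA 2, beside 1.17% and 3.84% of all genes tested. Of 13 genes tested in a list of double-stranded RNA sensors and related genes, 1 was called, ADAR, an enzyme that edits adenosines in such RNA. ADAR stood at 794 and 793 CPM with siRNA 1, 557 and 559 with siRNA 2 and 689.5 and 733 with the NS siRNA (log2 difference 0.51, SE 0.08, edgeR adjusted p = 0.019). It fell with siRNA 2 to 78.5% of the NS mean, and its 3′ UTR holds the 8-letter siRNA 2 word. Of 18 genes of the RNA interference machinery, 0 were called, DICER1 among them at -0.21 (-0.64 to 0.23).

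In the other lists, calls were single genes already named: KLF2 among 14 KLF factors and 25 immediate-early factors, DOK4 among 20 adaptors, BTG3 among 5 BTG and TOB proteins, CDCA4 among 5 SERTA proteins and TMEM55A among 26 genes of PI3K and AKT signalling. RAS family GTPases (16 tested), RAS regulators (21) and the RAF, MEK, ERK and RSK kinases (16) gave 0 calls. With 0.427% of all genes tested called, 0 calls in these and the following lists say little about them. NF-kB and cytokine genes gave 0 of 24, but the interval lay inside 2-fold for 6 of them, so these bound little. Muscle lineage markers gave 0 calls among 19 tested, DES differing by -0.28 (-0.69 to 0.13), and the epithelial, blood and endothelial, neural and fibroblast marker lists gave 0 calls among 4, 6, 7 and 12.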

How the data were processed

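RNA of 10 libraries in 5 groups was measured. Per the labels, libraries were made with a stranded mRNA kit. The deposited values are whole-number counts per gene, with no scaling. Per the submitters' processing notes, HTSeq, TopHat2, SAMtools and bcl2fastq were used with the builds GRCh37 and hg19. Their versions and the strand setting are not given in the sources. The 10 sample files matched the columns of the table. The 5 category lines stayed out of all totals: 9.91 to 11.3% of reads had no feature and 27.0 to 28.9% no unique alignment.

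edgeR 4.0.16 (R 4.3.3; quasi-likelihood test, TMM, filterByExpr at a minimum count of 10) fitted all 10 libraries with 5 residual degrees of freedom. Adjustment was by Benjamini-Hochberg over 14761 genes at 0.05, with 95% intervals from the same fit. No replicate pair agreed within sampling noise (chi-square 13.2 to 25.5 times its degrees of freedom).

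Named genes were a fixed set, the 12 highest and 12 lowest differences among called genes whose groups do not overlap, at 1 CPM or more, and called members of 31 lists, up to 6 a list. Some genes that the rule names are not reported here. Called genes outside it were chosen after their values were seen. Members, lists and tests were chosen with earlier results of these data known. 3′ UTRs are the longest of a GENCODE 29 coding transcript, matched by symbol for 13482 genes (91.3%). Alternatives changed scaling, filter, tool (DESeq2 1.42.0, limma 3.58.1), the libraries in the fit and the block, and left out each library.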

Additional observations from a re-analysis of the deposited data

Results flagged for a closer look

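The response against the NS siRNA differed between the siRNAs, by the direct edgeR test of the difference, in 63 genes (34 higher and 29 lower with siRNA 1). DOK4 was the gene of these called in opposite directions against the NS siRNA, with a difference of -1.26 between the siRNAs.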

How the results depend on the processing

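All 63 genes kept their sign in the 20 alternatives, which was largely set in advance because their groups did not overlap. C9orf6, DOK4, CDCA7L, TMEM106C and CDCA4 kept their call in each. The other 19 of 24 named called genes lost it in some: 18 without siRNA 1 replicate 2, 18 without siRNA 2 replicate 1, 16 without siRNA 2 replicate 2, 10 without siRNA 1 replicate 1 and 10 with only the 6 siRNA libraries. Counts are given as higher, lower and both directions between the siRNAs, then as calls against the NS siRNA for siRNA 1 and siRNA 2. With no filter, 47 genes were lower with siRNA 1, with 785 and 1690 calls against the NS siRNA. DESeq2 gave 75, 59 and 134, then 741 and 1556. Only the 4 NRAS siRNA libraries gave 19, 9 and 28, and only the 6 siRNA libraries 13, 6 and 19, then 66 and 217. The cause was not tested.

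With the replicate block in all 10 libraries the counts were 65, 55 and 120, then 1280 and 2815. With the replicate block in the 4 NRAS siRNA libraries they were 427, 540 and 967, of which 37 differed at least 2-fold. Deviations of same-numbered libraries correlated at 0.427 between both NRAS siRNAs and at 0.0737 to 0.448 over the 10 pairs of groups, above 0.1 in 9 of them. The labels tie no number to a shared culture or day, and with 2 numbers pairing was not decided.

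Leaving out 1 library at a time gave 3 to 31 genes higher with siRNA 1, 2 to 24 lower and 6 to 54 in all, with 6 to 13 at least 2-fold. Calls against the NS siRNA ran from 28 to 374 for siRNA 1 and from 53 to 1144 for siRNA 2. In these fits some uncalled genes changed sign: BCL2L11 ran from -0.26 to 0.062, CCND1 from -0.39 to 0.39, CDKN1A from -0.43 to 0.62, ETV4 from -0.21 to 0.29, ETV5 from -0.023 to 0.095, FOSL1 from -0.94 to 1.33, IFIT1 from -0.29 to 0.0068, MET from -0.19 to 0.031, MYC from -0.26 to 0.43, SERPINA3 from -0.80 to 0.39 and SPRY4 from -0.065 to 0.17. The share of genes lower with siRNA 1 that carry its words was 66.7% (6 of 9) in the fit of the 4 NRAS siRNA libraries.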
